A study of Mus musculus with 8 samples.

Results

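The EGF receptor, its ligands and its feedback inhibitor were followed across 4 genotypes of newborn mouse skin. Members were all probe sets whose single gene symbol in the platform annotation was Egfr, Ereg, Areg, Tgfa, Hbegf, Btc, Egf or Errfi1. This gave 16 of the 22626 probe sets tested, for 7 of the 8 genes: 5 for Egfr, 3 for Tgfa, 2 each for Hbegf, Btc and Errfi1, and 1 each for Ereg and Egf. No probe set listed for Areg alone was found by this rule, so Areg is not analysed here. No probe set was filtered out.

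All arrays held whole-skin RNA of newborn FVB mice, pooled from 3 animals of a genotype, with 2 arrays per genotype. The groups were pRb+/+ skin, called control skin here, pRb-/-;p107+/+ skin, called pRb-deficient, pRb+/+;p107-/- skin, called p107-deficient, and pRb-/-;p107-/- skin, called double-deficient. The control labels do not give the p107 genotype, which is taken as wild-type, and the labels do not say how either gene was deleted or in which skin cells. pRb, encoded by Rb1, and p107, encoded by Rbl1, are relatives that bind E2F transcription factors. The study asks what p107 does in epidermis that lacks pRb.

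The EGF receptor is a receptor tyrosine kinase of basal keratinocytes. Its ligands are made as membrane-anchored precursors, are released by ADAM metalloproteases, and signal through Ras and ERK to drive proliferation, migration and wound repair. Errfi1 (also called Mig6) is induced by this signalling and binds and inhibits the receptor kinase. Ligands and Errfi1 are therefore studied as a positive arm and a negative feedback arm of the same pathway.

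The values are standardized scores, with mean 0 and SD 1 over the 8 arrays for each probe set. The unit of a difference is thus the probe set's own SD across arrays, and fold changes, expression levels and comparisons of level between genes cannot be read. Scores are bounded at 2.47 in size over 8 arrays. Markers of skin likewise show only relative change, so the presence of the tissue's defining transcripts could not be checked. In bulk tissue, fewer cells of a type and less RNA per cell cannot be told apart.

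Genotypes are used as labelled. Rb1 scored 1.21 and 1.07 on the control arrays, -0.22 and 0.36 in pRb-deficient, 0.02 and 0.40 in p107-deficient and -1.56 and -1.28 in double-deficient skin; whether its probe set lies inside the deleted part is not known here. The first Rbl1 probe set scored from -0.31 to 0.31 in double-deficient skin, overlapping the control values of 0.08 and 0.21, below the 1.14 or more of pRb-deficient skin and above the -1.51 and -1.22 of p107-deficient skin. The other Rbl1 probe set scored -0.13 and -0.20 in double-deficient skin, below the control values of 0.58 and 1.03, and was lowest in p107-deficient skin at -1.53 and -1.12. Poly-A spike-in control probe sets averaged between 0.19 and 1.38 on the 4 arrays of control and pRb-deficient skin and between -0.96 and -0.55 on the 4 arrays labelled p107-/-, so p107 status and this technical difference cannot be told apart. Their averages did not overlap between any genotypes and were lowest in double-deficient skin, at -0.91 and -0.96. Gapdh control probe sets averaged -1.47 and -1.52 on the control arrays and between -0.03 and 0.84 on the others. Beta-actin control probe sets were lowest in double-deficient skin, at -1.0031 and -1.0781, and averaged between -0.86 and 1.41 on the other arrays. Hybridization control probe sets averaged between -0.80 and -0.32 on the 4 arrays labelled p107-/- and between -0.03 and 2.05 on the others. The 2.05 belonged to replicate 2 of control skin.

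Double-deficient skin had the highest scores for Ereg, Btc and Errfi1. Against control skin, 5 of the 16 probe sets rose and 0 fell (limma linear model without moderation, Benjamini-Hochberg adjusted over all 22626 probe sets, threshold 0.05), where 2.94% of all probe sets passed in either direction. The 5 were the single Ereg probe set and both probe sets of Btc and of Errfi1, so they stand for 3 genes. The receptor, Tgfa, Hbegf and Egf had 0 probe sets past the threshold. The median difference over the 16 probe sets was 1.62, against 0.10 over all tested. In 8 of the 16, both double-deficient arrays lay above the other 6 arrays, which was the case for 6.95% of all probe sets. In 0 of the 16 did both lie below the other 6, the case for 11.4% of all. The 8 were the 5 probe sets that rose and 1 each of Tgfa, Hbegf and Egfr.

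**Figure D1:**
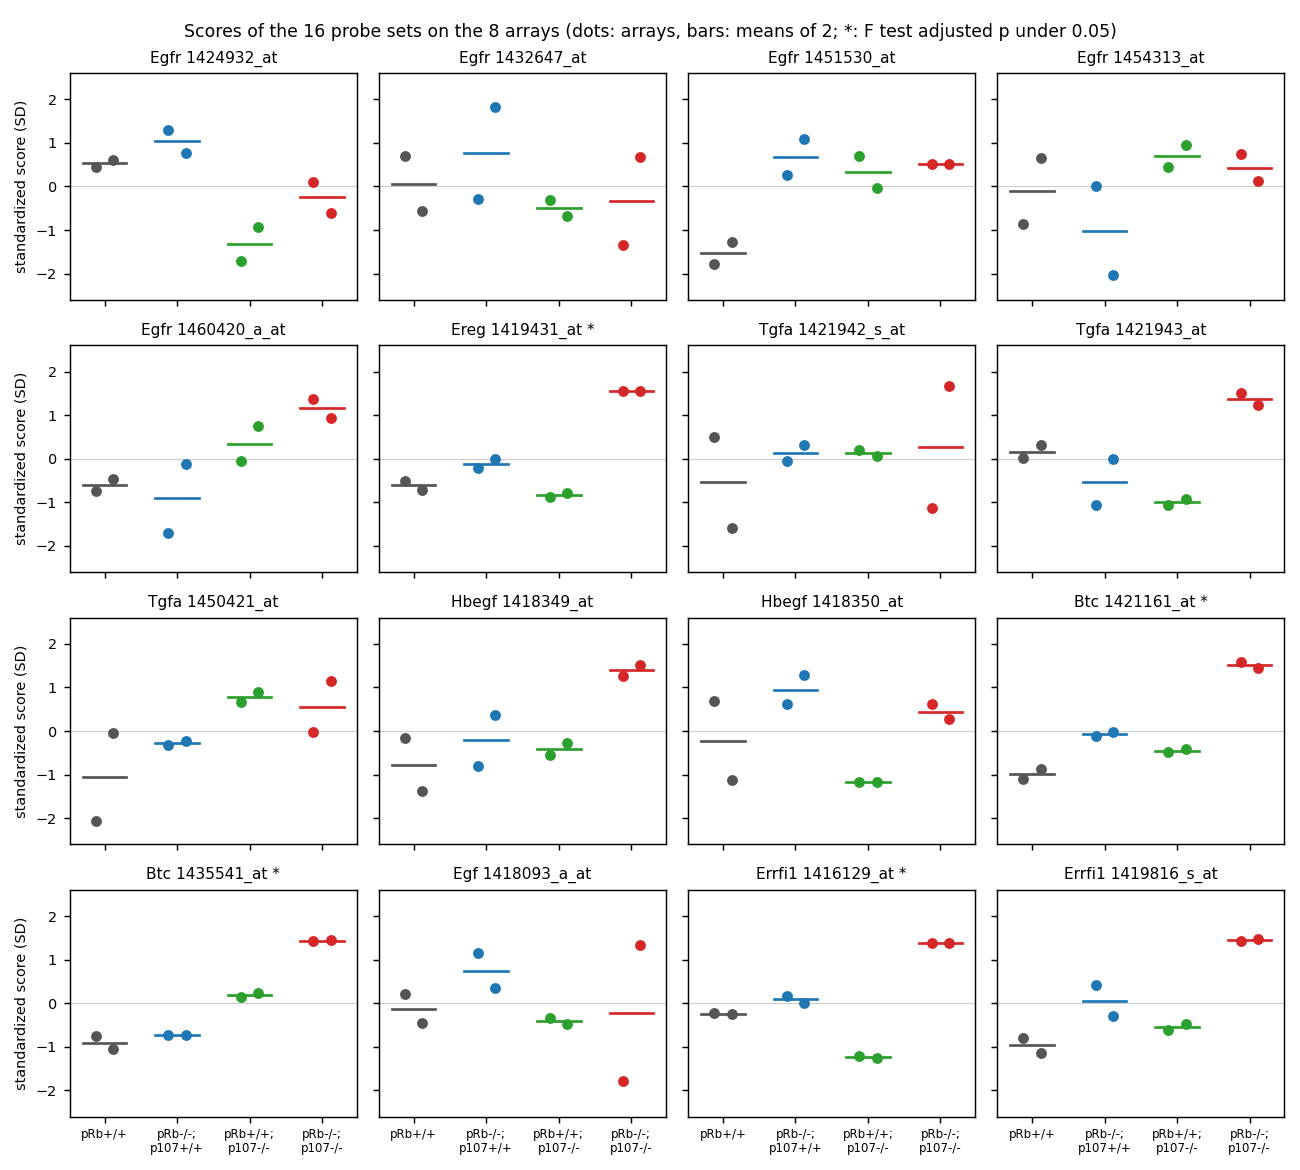
Standardized score (SD) of the 16 member probe sets, with 1 panel each. Dots are the 2 arrays of a genotype, bars are their means, and an asterisk marks an F test adjusted p under 0.05. In the Ereg, Btc and Errfi1 panels the lowest double-deficient dot is at 1.38 and the highest of the other genotypes is at 0.41.

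Among all 4 genotypes, 4 of the 16 probe sets differed (F test of the same limma linear model), where 1.28% of all probe sets did. They were Ereg (adjusted p = 0.0330), Btc 1421161_at (adjusted p = 0.0318), Btc 1435541_at (adjusted p = 0.0330) and Errfi1 1416129_at (adjusted p = 0.0264). At an unadjusted p below 0.05 there were 8 of the 16, beside 21.4% of all probe sets.

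Ereg encodes epiregulin, a ligand of the EGF receptor and of ErbB4 that is induced in proliferating and inflamed epidermis. It scored -0.50 and -0.71 in control skin, -0.22 and 0.001 in pRb-deficient, -0.89 and -0.78 in p107-deficient and 1.55 on both double-deficient arrays. The double-deficient arrays stand clear of all others, while the other genotypes lie within 1 score unit of each other. Ereg rose by 2.16 ± 0.11 (SE, n = 2 arrays per genotype) against control skin (limma linear model, adjusted p = 0.0164). It rose by 1.66 ± 0.11 against pRb-deficient skin (limma, adjusted p = 0.0282) and by 2.38 ± 0.11 against p107-deficient skin (limma, adjusted p = 0.0332). In the order of means, double-deficient skin was followed by pRb-deficient, control and p107-deficient skin. Neighbours below the first did not differ past the threshold: the difference was 0.50 ± 0.11 for pRb loss in skin that kept p107 (adjusted p = 0.237) and -0.23 ± 0.11 for p107 loss in pRb+/+ skin (adjusted p = 0.367).

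Btc encodes betacellulin, a ligand of the EGF receptor and ErbB4. Its probe set 1421161_at scored -1.11 and -0.87 in control, -0.12 and -0.02 in pRb-deficient, -0.47 and -0.42 in p107-deficient and 1.58 and 1.44 in double-deficient skin. The 4 genotypes do not overlap in this probe set, with control skin lowest. It rose by 2.50 ± 0.10 against control skin (limma, adjusted p = 0.0118), by 1.58 ± 0.10 against pRb-deficient skin (adjusted p = 0.0267) and by 1.96 ± 0.10 against p107-deficient skin (adjusted p = 0.0396). The step from control to pRb-deficient skin was 0.92 ± 0.10 and did not pass (limma, adjusted p = 0.129).

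The second Btc probe set, 1435541_at, scored -0.76 and -1.06 in control, -0.74 and -0.72 in pRb-deficient, 0.15 and 0.25 in p107-deficient and 1.43 and 1.45 in double-deficient skin. Here p107-deficient skin, not pRb-deficient skin, comes second, so the probe sets differ in the order of the middle genotypes. Scores of 1435541_at were positive on all arrays labelled p107-/- and negative on all the others. The spike-in controls split by the same label, with the opposite sign, so p107 status and that technical difference cannot be told apart here. This probe set rose by 2.35 ± 0.11 against control skin (limma, adjusted p = 0.0145) and by 2.17 ± 0.11 against pRb-deficient skin (adjusted p = 0.0228). Its difference of 1.24 ± 0.11 from p107-deficient skin did not pass (limma, adjusted p = 0.0698), nor did the 1.11 ± 0.11 between p107-deficient and control skin (adjusted p = 0.0662).

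Errfi1 encodes the feedback inhibitor. Its probe set 1416129_at scored -0.22 and -0.25 in control, 0.17 and 0.01 in pRb-deficient, -1.20 and -1.27 in p107-deficient and 1.38 on both double-deficient arrays. The p107-deficient arrays are the lowest and the double-deficient arrays the highest, without overlap of any genotypes. This probe set fell by 1.00 ± 0.06 with p107 loss in pRb+/+ skin (limma, adjusted p = 0.0446). It was the only member probe set to pass in that comparison, in which 0.42% of all probe sets passed. In pRb-/- skin, p107 loss went with a rise of 1.29 ± 0.06 (limma, adjusted p = 0.0228). The probe set rose by 1.62 ± 0.06 against control skin (limma, adjusted p = 0.0112) and by 2.61 ± 0.06 against p107-deficient skin (adjusted p = 0.0167).

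The other Errfi1 probe set, 1419816_s_at, carries a suffix used by Affymetrix for probes shared by several transcripts. It scored -0.80 and -1.13 in control, 0.41 and -0.29 in pRb-deficient, -0.61 and -0.48 in p107-deficient and 1.42 and 1.48 in double-deficient skin. Double-deficient skin is again highest, but p107-deficient skin is not lowest. It rose by 2.42 ± 0.28 against control skin (limma, adjusted p = 0.0434). The difference for p107 loss in pRb+/+ skin was 0.42 ± 0.28 (limma, adjusted p = 0.471), so the fall with p107 loss alone was seen in only 1 of the 2 Errfi1 probe sets.

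**Figure D2:**
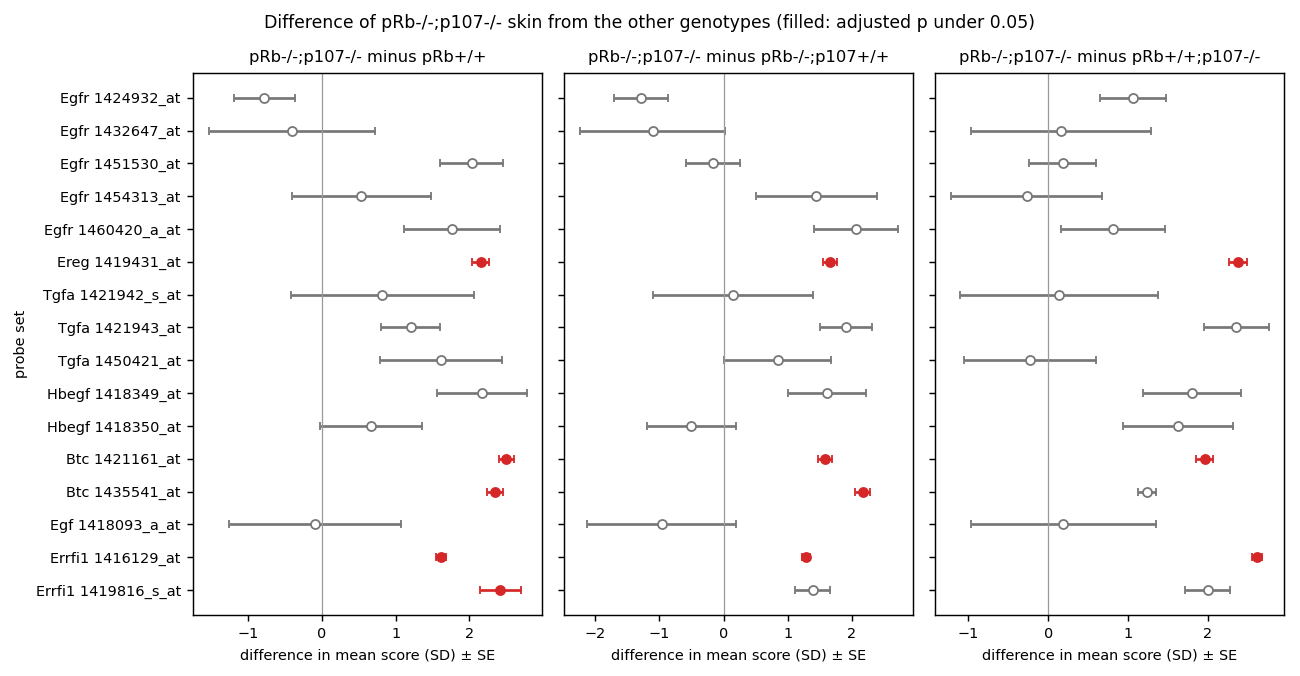
Difference in mean score (SD, x axis) between double-deficient skin and each other genotype for the 16 probe sets (y axis), with the SE of the linear model. Filled points passed an adjusted p of 0.05: 5 against control skin, 4 against pRb-deficient skin and 3 against p107-deficient skin, all positive.

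The 3 comparisons with double-deficient skin share its 2 arrays and are not independent. Against pRb-deficient skin 4 of the 16 probe sets rose and 0 fell, where 1.37% of all passed: Ereg, both Btc probe sets and Errfi1 1416129_at. The median member difference there was 1.34, against -0.10 over all. Against p107-deficient skin 3 rose and 0 fell, where 0.256% of all passed: Ereg, Btc 1421161_at and Errfi1 1416129_at. The members' median was 1.15 in this comparison, against -0.33 over all. Both groups of that last comparison lie on the same side of the p107 split in spike-in controls. These controls still differed between the groups, averaging -0.57 and -0.55 in p107-deficient and -0.91 and -0.96 in double-deficient skin.

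These calls depended on the full set of arrays. In each comparison with a member call, fewer of all probe sets passed as well when any 1 array was left out. For loss of both proteins all 5 calls held without either pRb-deficient array, and 0 held without either control array, either p107-deficient array or either double-deficient array. For p107 loss in pRb-/- skin the count went from 4 to 1 (Btc 1435541_at) without either control array and to 0 without any other array. For pRb loss in p107-/- skin it went from 3 to 1 (Errfi1 1416129_at) without either pRb-deficient array and to 0 without any other. The 1 call for p107 loss in pRb+/+ skin was lost without any 1 array. The moderated test of limma called 0 member probe sets, and 0 of all probe sets, in each comparison. The 13 differences that passed kept their sign under each setting tried, and leaving out an array changed them by factors between 0.932 and 1.07.

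Loss of pRb where p107 was kept gave 0 calls among the 16 probe sets and 0% among all (limma linear model). At an unadjusted p below 0.05 there were 5 of the 16, against 13.4% of all. Of the 16 differences 13 were positive, against 53.7% of all. The most positive was 2.20 ± 0.42 for Egfr 1451530_at (adjusted p = 0.196). The interaction of both losses also gave 0 calls among the members and 0% among all, with 6 member probe sets at an unadjusted p below 0.05 beside 13.1% of all. With only the 2 groups compared in the fit, 0 member probe sets passed in each comparison of 2 genotypes.

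The ligands without a call differed between their probe sets. Tgfa encodes TGF-alpha, an autocrine ligand of keratinocytes. Its probe set 1421943_at scored 0.01 and 0.32 in control, -1.07 and -0.02 in pRb-deficient, -1.06 and -0.92 in p107-deficient and 1.51 and 1.22 in double-deficient skin. The double-deficient arrays again lie above the rest, but the spread within pRb-deficient skin is wide. The difference from control was 1.20 ± 0.40 (limma, adjusted p = 0.201) and that from pRb-deficient skin 1.91 ± 0.40 (adjusted p = 0.128). The other Tgfa probe sets did not separate the genotypes: in 1421942_s_at the double-deficient arrays scored -1.13 and 1.68, and in 1450421_at the control arrays scored -2.07 and -0.05. Over the 8 arrays the 3 Tgfa probe sets correlated with each other at r between -0.05 and 0.16, a description over arrays they share.

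Hbegf encodes heparin-binding EGF, a ligand of migrating keratinocytes at wound edges. In 1418349_at it scored -0.16 and -1.38 in control, -0.80 and 0.37 in pRb-deficient, -0.55 and -0.27 in p107-deficient and 1.27 and 1.52 in double-deficient skin. The double-deficient arrays lie above the other 6, while control and pRb-deficient arrays overlap. The difference from control skin was 2.17 ± 0.61 (limma, adjusted p = 0.159). In 1418350_at the double-deficient scores of 0.63 and 0.27 lay inside the control values of 0.68 and -1.12. The lowest there were the p107-deficient arrays at -1.18 and -1.17. Egf, the founding ligand of the family, had a score of -1.77 on one double-deficient array and 1.34 on the other, and these duplicate arrays span all the others (difference from control -0.09 ± 1.16, limma, adjusted p = 0.973).

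The receptor itself showed no shared pattern over its 5 probe sets. Egfr 1460420_a_at scored -0.74 and -0.47 in control, -1.69 and -0.11 in pRb-deficient, -0.05 and 0.75 in p107-deficient and 1.38 and 0.94 in double-deficient skin. Its difference from control skin was 1.77 ± 0.65 (limma, adjusted p = 0.231). In 1451530_at the control arrays were lowest, at -1.77 and -1.27, and the other 6 arrays lay between -0.03 and 1.09. The difference there for loss of both was 2.03 ± 0.42 (limma, adjusted p = 0.101). In 1424932_at, which the annotation ties to the same sequence record as 1451530_at, the p107-deficient arrays were lowest, at -1.71 and -0.93, and the difference for loss of both was -0.78 ± 0.42 (adjusted p = 0.368). The remaining pair, 1432647_at and 1454313_at, share another record and ran opposite to each other, with r = -0.91 over the 8 arrays. By contrast, the Btc probe sets correlated at 0.87 and the Errfi1 probe sets at 0.84.

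Ereg, Areg and Btc are neighbours on mouse chromosome 5, in a row that starts with Epgn, the gene of the EGF receptor ligand epigen. In the RefSeq table of GRCm38.p6 these 4 genes follow each other with no other protein-coding gene between them. Epgn scored -0.33 and -0.43 in control, -0.25 and -0.62 in pRb-deficient, -0.69 and -0.85 in p107-deficient and 1.62 and 1.56 in double-deficient skin. It rose by 1.97 ± 0.15 against control skin (limma, adjusted p = 0.0234), by 2.02 ± 0.15 against pRb-deficient skin (adjusted p = 0.0328) and by 2.36 ± 0.15 against p107-deficient skin (adjusted p = 0.0457). For loss of both its call held without either pRb-deficient array and was lost without any other array, with adjusted p from 0.0956 to 0.152.

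The 3 ligand genes of this row with a single-symbol probe set therefore all rose in double-deficient skin. Of the 5 protein-coding genes on each side of the row, 6 had a probe set, 7 probe sets in all. None of the 7 passed for loss of both (limma, lowest adjusted p = 0.0757) and 2 had a positive difference. The nearest measured gene beyond Btc, Parm1, differed by -2.38 ± 0.40 and -2.15 ± 0.61 in its 2 probe sets. Whether the row differs from its flanks beyond these values was not tested.

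**Figure D3:**
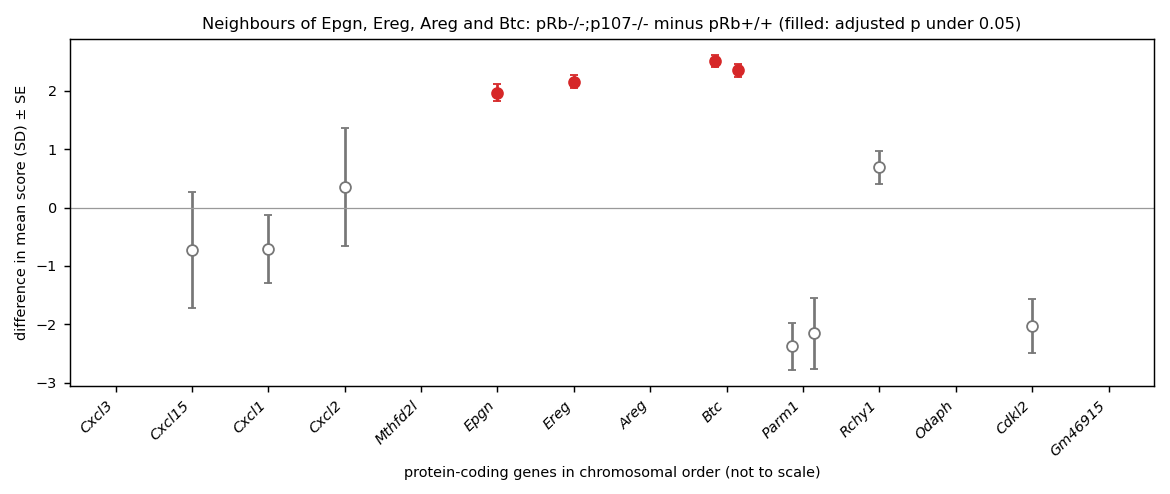
Difference in mean score (SD) with SE between double-deficient and control skin for the genes around the chromosome 5 ligand row, in chromosomal order and not to scale. Filled points passed an adjusted p of 0.05. They are Epgn, Ereg and both Btc probe sets, between 1.97 and 2.50, and the 7 flanking probe sets are open.

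To show the sequence upstream of member genes, the 250 bases before each annotated start were read from the RefSeq promoter table (GRCm38.p6). It held 8 entries for 6 of the 8 genes. Ereg, which rose, and Hbegf had no entry, so their upstream sequences were not searched. The letters searched on both strands were TTTGGCGC, TTTGCCGC, TTTCCCGC and TTTCGCGC for E2F, TGANTCA for AP-1, TATAAA for a TATA box and TGACGTCA for a cAMP response element, the last added after the sequences were seen. No search word overlaps another in the sequences shown. Capitals mark the matches, and both are printed because these genes rose in both of their probe sets.
Btc, chr5:91402995-91403244, minus strand: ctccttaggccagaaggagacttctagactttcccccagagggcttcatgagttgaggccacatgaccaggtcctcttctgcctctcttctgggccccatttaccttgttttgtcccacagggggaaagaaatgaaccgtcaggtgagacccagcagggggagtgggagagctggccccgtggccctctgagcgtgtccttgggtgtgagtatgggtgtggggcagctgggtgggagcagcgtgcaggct
Errfi1, second start, chr4:150854820-150855069, plus strand: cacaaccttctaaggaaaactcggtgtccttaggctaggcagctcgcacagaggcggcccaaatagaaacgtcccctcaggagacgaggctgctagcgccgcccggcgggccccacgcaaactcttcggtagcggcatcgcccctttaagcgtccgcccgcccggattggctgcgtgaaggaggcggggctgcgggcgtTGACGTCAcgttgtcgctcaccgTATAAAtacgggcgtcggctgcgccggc
The Errfi1 window shown holds TGACGTCA from 51 to 44 bases before the start and TATAAA from 28 to 23 bases before it, and the window of the other Errfi1 start holds neither word. TGACGTCA occurs in 1.55% of the 32851 promoter windows of this length and TATAAA in 12.4%. The window of Areg, for which no probe set was listed alone, holds the same pair of words. The Btc window holds none of the words. None of the 8 windows of these genes holds an E2F word, found in 1.86% of all windows, or an AP-1 word, found in 6.75%. These are letter matches in short windows, not binding sites.

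The wider pathway was read from 5 lists with 71 genes, of which 57 had a probe set, 110 in all. For loss of both proteins 5 of the 110 rose, 4 fell and 101 did not pass, where 2.94% of all probe sets passed in either direction. At an unadjusted p below 0.05 there were 35 of the 110, beside 22.3% of all. The median difference was 0.10, the same as over all probe sets. Of the other ErbB receptors and ligands, 1 of 8 probe sets rose, that of Epgn, and 0 fell. Nrg3, which encodes a neuregulin, had the next largest difference, 1.74 ± 0.84 (limma, adjusted p = 0.326), but its second probe set differed by -1.51.

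Among genes of ligand shedding, 1 of 16 probe sets rose and 1 fell. Adam10, a sheddase of betacellulin and EGF precursors, rose by 2.10 ± 0.23 in 1450104_at (limma, adjusted p = 0.0402). It scored -1.27 and -1.86 in control skin and 0.26 or higher in each of the other genotypes, so the control arrays stand apart and not the double-deficient ones. Its probe set 1450105_at differed by 2.42 ± 0.33 (adjusted p = 0.0534), and Adam17, the main sheddase of Tgfa, Areg and Hbegf, by 2.16 ± 0.46 in 1421857_at (adjusted p = 0.104). The remaining Adam10 probe set differed by 0.42 and the other Adam17 probe sets by 1.36 and 1.39, and none of these passed. Timp3, an inhibitor of Adam17, fell by 1.85 ± 0.14 in 1449335_at (limma, adjusted p = 0.0236), although 1 of its 4 probe sets had the opposite sign. Timp3 scored 0.79 and 0.51 in control, 1.15 and 1.10 in pRb-deficient, -0.46 and -0.68 in p107-deficient and -1.30 and -1.11 in double-deficient skin, so it was low on all arrays labelled p107-/-, as the spike-in controls were.

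In the adaptors and the Ras-ERK core 2 of 34 probe sets rose and 0 fell. Gab2, a docking adaptor, rose by 1.53 ± 0.18 (limma, adjusted p = 0.0454), and the kinase gene Src by 1.47 ± 0.14 (adjusted p = 0.0329), with the opposite sign in the other Src probe set. Gab2 scored 1.28 and 1.26 in p107-deficient skin and 0.23 and 0.71 in double-deficient skin. Src rose by 2.43 ± 0.14 with p107 loss in pRb+/+ skin (limma, adjusted p = 0.0446). Gab2 and the Src probe set that rose were positive on all arrays labelled p107-/- and negative on all the others. The spike-in controls split by the same label, with the opposite sign. The 2 largest differences belonged to Rasa1, a Ras inhibitor (2.36 ± 0.52, limma, adjusted p = 0.109), and Nras (-2.14 ± 0.72, adjusted p = 0.205), and 2 of the 3 Rasa1 probe sets had the opposite sign. Of the other negative regulators 0 of 29 probe sets passed, with 8 at an unadjusted p below 0.05, beside 22.3% of all probe sets, and 0 by the moderated test of limma. Spry1 and Sh3kbp1 had the largest differences there, 2.26 ± 0.65 and 2.25 ± 0.47 (limma, adjusted p = 0.164 and 0.102). The other Sh3kbp1 probe sets differed by 2.06 and 1.71, and 15 of the 29 differences in the list were positive. No probe set of this list had a call for loss of both, as the probe sets of Errfi1 did. Its largest differences nonetheless lay between the 1.62 and 2.42 of the Errfi1 probe sets.

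Of the ERK response genes 1 of 23 probe sets rose and 3 fell. Ier3, an immediate early gene, rose by 2.31 ± 0.08 (limma, adjusted p = 0.00983). Its scores lay between -0.73 and -0.40 on the 6 other arrays and at 1.69 and 1.52 in double-deficient skin, as for Ereg. The cyclin D1 gene Ccnd1, which ERK induces in growing cells, fell in 2 of its 3 probe sets, by 2.18 ± 0.19 (adjusted p = 0.0271) and 2.26 ± 0.27 (adjusted p = 0.0454), and differed by -2.41 ± 0.54 in the third (adjusted p = 0.110). Mcl1, a survival gene of the Bcl2 family, fell by 2.09 ± 0.22 in 1 of its 6 probe sets (limma, adjusted p = 0.0390), and 1 of the 6 had the opposite sign. The Mcl1 probe set that fell and the first Ccnd1 probe set were below 0 on all 4 arrays labelled p107-/- and above 0 on the other 4, as the spike-in controls were. Of the 16 differences of these pathway genes that passed in any comparison, 2 held without either pRb-deficient array and 0 held without any other array.

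**Figure D4:**
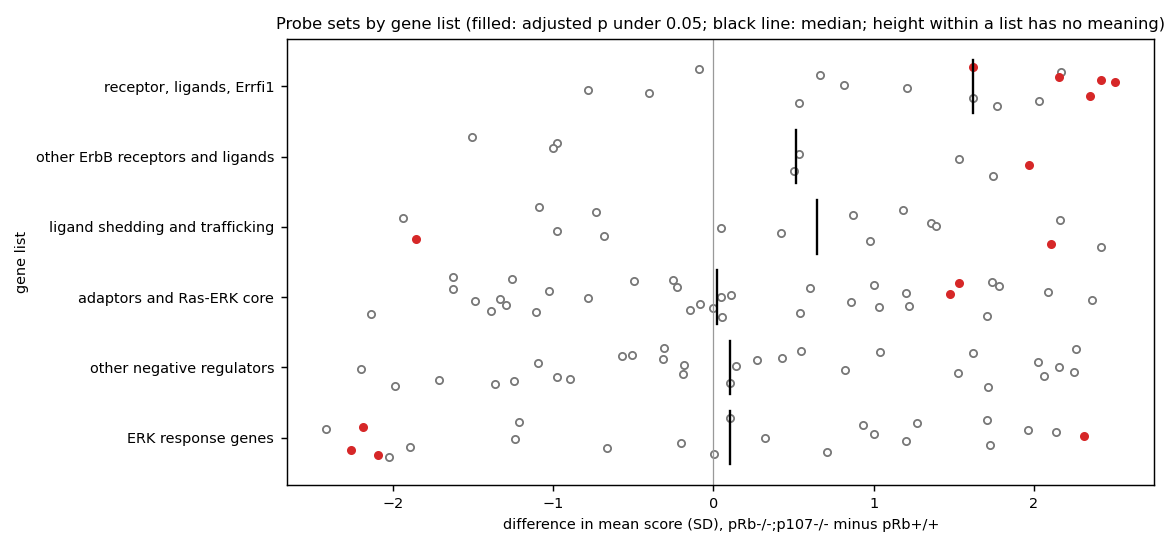
Difference in mean score (SD, x axis) between double-deficient and control skin for each probe set of the members and of 5 pathway lists (y axis). Filled points passed an adjusted p of 0.05 and black lines are medians, at 1.62 for the members and between 0.02 and 0.65 for the lists.

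Probe sets of other genes with the most similar scores over the 8 arrays were named for the 4 probe sets that passed the F test. For Ereg these were Ide, Rdh9 and Ctla2a (r of 0.992, 0.991 and 0.991). For Btc 1421161_at they were Cpd, Sprr2d and Sprr1b (0.998, 0.994 and 0.994), and for Btc 1435541_at Fkbp5, Dnase1l3 and Slc25a48 (0.987, 0.987 and 0.985). For Errfi1 1416129_at they were Sult2b1, Pdk4 and Trp53inp1 (0.992, 0.990 and 0.990). Without the double-deficient arrays these correlations lay between 0.903 and 0.995 over 6 arrays. The named probe sets were picked as the highest among the 20380 with 1 gene symbol, leaving out those of the same gene. They are given as a description.

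Marker lists of skin cell types differed between the genotypes in several ways. Rises and falls given here are those of double-deficient against control skin. In that comparison 2.94% of all probe sets passed in either direction and 52.3% had a positive difference. The 12 probe sets of spinous and granular keratinocytes averaged 1.17 and 1.09 on the double-deficient arrays and between -0.91 and 0.19 on the others, with a positive difference from control in 12 of 12 and 3 that rose. The 15 hair follicle probe sets averaged -0.84 and -0.80 in double-deficient skin and between -0.23 and 0.79 elsewhere, with 8 that fell and 0 that rose. The 14 stress keratinocyte probe sets averaged 0.51 and 0.30 in double-deficient skin and between -0.61 and 0.21 elsewhere, with 5 that rose and 1 that fell. Mast cell probe sets, high on all arrays labelled p107-/-, averaged 0.68 and 0.81 in double-deficient, 0.51 and 0.52 in p107-deficient and between -0.72 and -0.39 in the other genotypes, with 4 of 11 that rose and 1 that fell. Basal keratinocyte probe sets, where the receptor is mostly made, averaged 0.59 and -0.11 in double-deficient and between -0.77 and 0.30 in the other genotypes, so they did not separate double-deficient skin. The part of these shifts in the scores of Ereg, Btc and Errfi1 was not tested. The remaining 5 lists, of fibroblasts, adipocytes, skeletal muscle, endothelium and macrophages, had double-deficient averages between -1.10 and 0.22, and in each list at most 1 probe set rose and at most 1 fell.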

How the data were processed

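RNA of whole newborn skin was measured on 8 Affymetrix arrays, with RMA named in the processing notes (per the submitters' processing notes, without a version). The authors deposited 1 table of 22690 probe sets whose unit is a standardized score. Each row has mean 0 and SD 1, a step and a starting scale not given in the sources used here. The 64 array controls were left out. Sample titles gave the genotype and the number of each array. They leave unsaid whether duplicates are separate pools, so p-values measure only the spread between arrays, which may be technical. The number of arrays limits the precision.

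A linear model with 1 coefficient per genotype was fitted to all 22626 probe sets with limma 3.58.1 in R 4.3.3, and its ordinary test was used with 4 residual degrees of freedom, because it gives the same p-values on scores as on the values behind them. This was checked on simulated data. Benjamini-Hochberg adjustment ran over all of these probe sets.

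The members, the 5 pathway lists, 10 marker lists and the tests were chosen with earlier results of these data known. Named pathway genes were those that passed in any comparison and the 2 per list with the largest difference for loss of both. The 3 most similar probe sets of other genes were named for each member that passed the F test. Symbols came from the platform annotation, with 20380 probe sets of 1 symbol, 691 of several and 1555 of none. Alternatives were moderation, quantile normalization, array medians, single-symbol probe sets, the replicate block, each array left out, and only the groups compared.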

Additional observations from a re-analysis of the deposited data

Results flagged for a closer look

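Opposite directions of p107 loss in the 2 pRb backgrounds were looked for. Lower scores in pRb+/+ skin with higher scores in pRb-/- skin were seen in 3 of the 16 member probe sets and in 579 of all 22626. In these, both p107-deficient arrays lay below both control arrays, and both double-deficient arrays lay above both pRb-deficient arrays. The reverse pattern was seen in 0 of the 16 and was not counted over all probe sets. The difference between the 2 effects was tested as the interaction of the limma linear model, and none of the 3 passed. It was 2.29 for Errfi1 1416129_at (adjusted p = 0.0765), 1.89 for Ereg (adjusted p = 0.0881) and 3.06 for Tgfa 1421943_at (adjusted p = 0.198), over 8 arrays. The median interaction over all probe sets was -0.44. The other Errfi1 probe set and the other Tgfa probe sets did not show these opposite directions. Groups of 2 arrays are too small for a test of single outlying arrays.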

How the results depend on the processing

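The 13 member differences that passed kept their direction under each alternative run. The counts of member probe sets past the threshold (4 among genotypes, 1 for p107 loss in pRb+/+ skin, 4 for p107 loss in pRb-/- skin, 3 for pRb loss in p107-/- skin and 5 for loss of both) all became 0 with the moderated test of limma, and the 4 between pairs of genotypes became 0 with only the groups compared in the fit, which leaves 2 degrees of freedom fewer. Quantile normalization of the scores gave 2 among genotypes and 2 for p107 loss in pRb-/- skin, and left the other counts as they were. With array medians subtracted there was 1 among genotypes, 0 for p107 loss in pRb+/+ skin, 1 for p107 loss in pRb-/- skin, 0 for pRb loss in p107-/- skin and 5 for loss of both. Testing only probe sets with 1 gene symbol changed no member count. Leaving out an array gave 0 among genotypes, 0 for p107 loss in pRb+/+ skin, 0 to 1 for p107 loss in pRb-/- skin, 0 to 1 for pRb loss in p107-/- skin and 0 to 5 for loss of both. Calls over all probe sets also became fewer in these comparisons. A genotype left with 1 array is then assumed to vary like the others. The cause of these changes beyond the lost degrees of freedom was not tested.

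With the replicate block there was 1 call for loss of both (Errfi1 1416129_at, limma, adjusted p = 0.0441) and 0 in the other comparisons. Same-numbered arrays of different genotypes had differences between replicates that correlated between -0.131 and 0.105, so the numbers were not taken to pair the arrays. Over all probe sets the median difference was 0.35 for p107 loss in pRb+/+ skin and -0.33 for pRb loss in p107-/- skin, shifts that subtracting array medians changes. Standardized scores hold no signal over background, so what dim probe sets limit is unknown.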
